A study of Homo sapiens with 6 samples.

Results

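The comparison described here is between cells given an siRNA against CTNNB1 and the control siRNA sample named for that knockdown. It uses 2 of the 6 arrays of the series, 1 on either side, and covers all 14812 genes that the platform annotation ties to a probe set. Each gene was taken as the value on the CTNNB1 siRNA array minus the value on its control array, on a log2 scale, averaged over the gene's probe sets. All samples are LS180, an established human colorectal adenocarcinoma line. The CTNNB1 group received siRNA against that gene, and its control group received a control siRNA. The other groups mentioned received siRNA against MYC, a transcription factor, or MYU, a long non-coding RNA, each with a control array of its own. No dose, time or siRNA sequence is given in the labels, and the treatment tag of the CTNNB1 array reads CTNNB2 although its title and source name give CTNNB1. No listed probe set carries CTNNB1, so the knockdown has no direct check.

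CTNNB1 encodes beta-catenin, which joins cadherins to the actin cytoskeleton and, when it is not degraded, enters the nucleus and works with TCF and LEF proteins as the transcriptional arm of Wnt signalling. In the intestine this arm maintains the dividing crypt cells, and most colorectal tumours carry lesions that keep it active. MYC is a target of this arm and itself drives genes for making ribosomes, nucleotides and RNA. The account below turns to gene families outside the division and enterocyte programmes: the makers and carriers of RNA, mitochondria, vesicles and lysosomes, the cell surface and cytoskeleton, metabolism, signalling regulators and non-coding RNAs.

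Of the 14812 genes, 1028 (6.94%) were at least 2-fold apart, meaning a log2 difference of at least 1 in size, with 415 (2.8%) higher and 613 (4.14%) lower on the CTNNB1 siRNA array. For the 11910 protein-coding genes the shares were 8.3% in either direction, 3.37% higher and 4.94% lower, and these are the background for the protein-coding families below. The median of all genes was 0, and 90% of genes lay between -0.91 and 0.70. The deposited values were centred within each pair, so a gene at -2 on the difference scale stands at -1 on the knockdown array and at 1 on the control array, and the level of expression is not recorded. With 1 array a side there is no replicate error and no test, and higher and lower describe these 2 arrays only. Families were collected by symbol, and 93 of them with at least 5 measured genes were counted, not all of which are named below. Past 2-fold, 32 had lower genes only, 30 had higher genes only, 21 had both and 10 had none. These counts include 9 families, named below, that were collected after the values were seen. Each of them holds genes past 2-fold, so the counts depend on that choice. Just inside the threshold lay ERRFI1, TIMP1 and STARD4, at 1.001, 1.001 and 1.002, and just outside it SIPA1L3, PITPNM3 and IL4R, at 0.999, 0.998 and 0.998. On the lower side CEP192 (-1.005), RPL29 (-1.005) and MRPL17 (-1.008) were just inside and CBX3, DHX15 and DDX55, the last at -0.999, just outside. Membership near the threshold is therefore a matter of the third decimal.

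Families that make and process RNA were among those furthest below 0. Of 78 measured ribosome assembly factors, 44 were at least 2-fold lower, none was higher, and 77 were below 0, with a median of -1.20. HEATR1, a component of the processome that builds the small ribosomal subunit, had a value of -1.01 on the knockdown array and 1.01 on the control array, a difference of -2.02 or 4.06-fold. WDR3 and NOP58, both parts of the machinery that matures pre-ribosomal RNA, differed by -1.98 and -1.95. URB1, a factor of the large subunit, and the RNA helicase DDX21 each had a difference of -1.91, and the GTPase GTPBP4 had -1.84. The family thus extended from -2.02 to 0.16 without a member standing clearly above 0. In the other 2 array pairs its median was -0.51 with MYC siRNA and 0.06 with MYU siRNA. Titles of the control arrays for CTNNB1 and for MYC bear a common number and may or may not be 1 hybridisation, so values from these pairs are only set side by side.

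**Figure D1:**
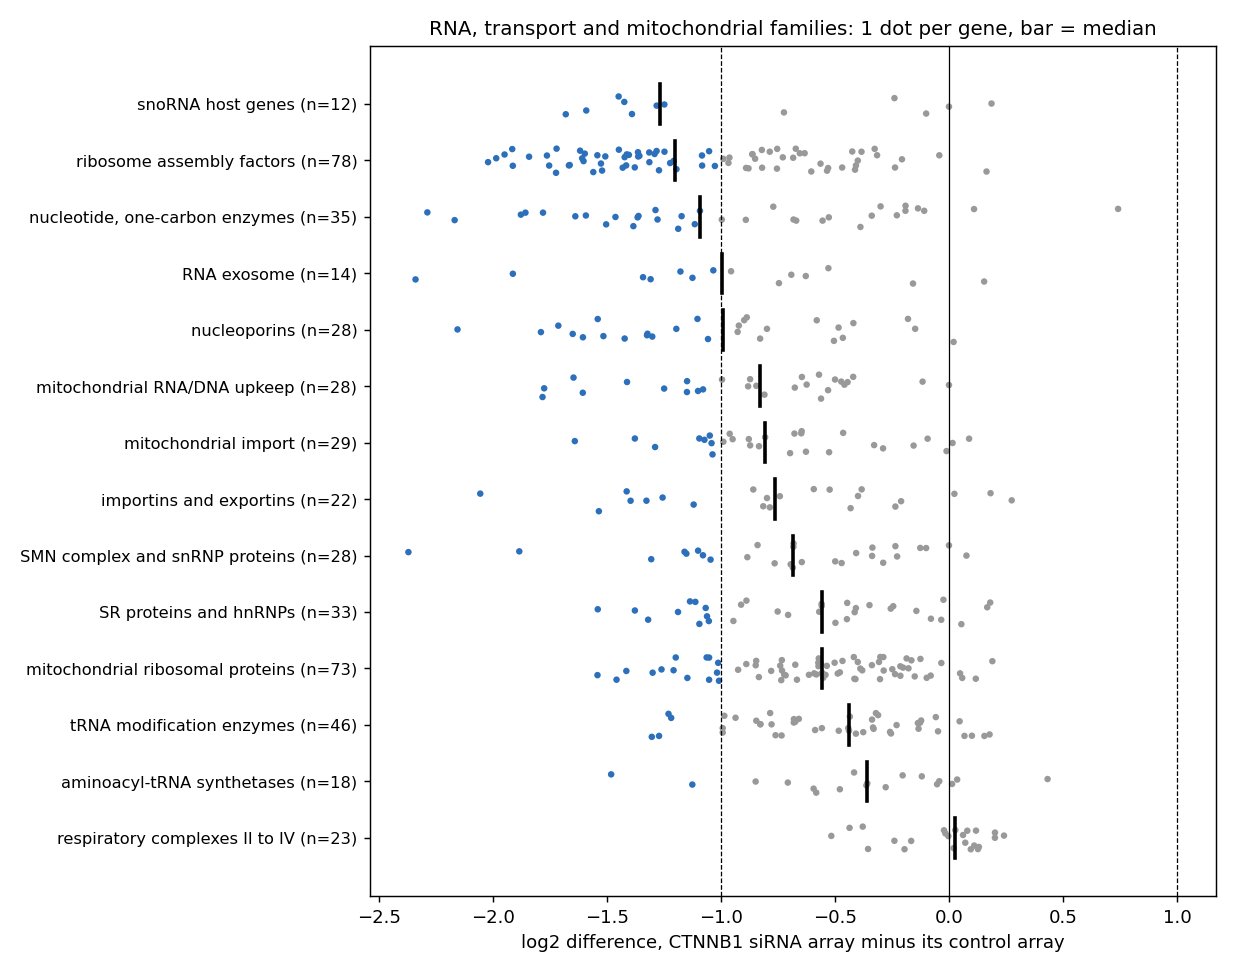
Log2 difference (CTNNB1 siRNA array minus its control array, horizontal axis) of every measured gene in 14 families, 1 dot per gene, with the family median as a black bar, dashed lines at 2-fold and blue for genes at least 2-fold lower. Medians run from -1.26 for the snoRNA host genes to 0.03 for respiratory complexes II to IV, in which no gene passed 2-fold.

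The promoters of the ribosome assembly genes were searched for the E-box letters CACGTG, which read the same on both strands and form the core of the element bound by MYC with MAX and by other basic helix-loop-helix proteins. RefSeq promoters of GRCh38.p14, 250 bases before to 50 after the start site, matched 10736 of the genes. Of these, 969 (9.03%) held the E-box. The share was 16.3% (84 of 516) among genes 2-fold lower, 9.63% (31 of 322) among genes 2-fold higher and 8.63% (854 of 9898) among genes within 2-fold. Ribosome assembly genes had it in 24 of 64 promoters (37.5%), and without them the share in the lower genes was 14.4% (69 of 479). The letters include CpG, so the mean GC content of each set is given: it was 61.85% in genes within 2-fold, 63.63% in lower genes, 64.07% in higher genes and 62.31% in ribosome assembly genes. In the other families far below 0 given here the share was smaller and varied. The letters were in 0 of 11 snoRNA host genes, 2 of 25 nucleoporins, 1 of 12 RNA exosome genes and 5 of 65 mitochondrial ribosomal proteins. Above the 9.03% of all promoters were importins and exportins (4 of 17) and SR proteins and hnRNPs (5 of 30). So were mitochondrial import (4 of 27), nucleotide and one-carbon enzymes (4 of 31) and the SMN complex and small nuclear ribonucleoproteins (3 of 26). Among families nearer 0, translation initiation factors (median -0.27) held the letters in 7 of 22 promoters (31.8%). Kruppel-like factors (median 0.05) held them in 4 of 15 (26.7%). Inside the ribosome assembly family the 24 genes with the letters had a median difference of -1.26, and the 40 without had -1.14. Carrying the letters thus did not separate strongly lower members from the rest, and HEATR1 and WDR3, the lowest of all, are among the 40 without.

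The upstream sequence of 2 members is shown because their E-box lies in the 250 bases before the start site and they had the largest differences among such members. It is written 5′ to 3′ in the direction of the gene, with the E-box in capitals. NAT10, an acetyltransferase of ribosomal and transfer RNA, lies at chr11:34105379-34105628 on the plus strand (GRCh38.p14), with the E-box starting at -15 from the start site. UTP18, a processome component, lies at chr17:51260296-51260545 on the plus strand, with the E-box starting at -89.
NAT10: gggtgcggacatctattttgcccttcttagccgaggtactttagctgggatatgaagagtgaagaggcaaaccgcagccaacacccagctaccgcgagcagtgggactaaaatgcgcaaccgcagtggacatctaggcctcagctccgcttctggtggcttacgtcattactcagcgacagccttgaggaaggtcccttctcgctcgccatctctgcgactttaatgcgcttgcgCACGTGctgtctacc
UTP18: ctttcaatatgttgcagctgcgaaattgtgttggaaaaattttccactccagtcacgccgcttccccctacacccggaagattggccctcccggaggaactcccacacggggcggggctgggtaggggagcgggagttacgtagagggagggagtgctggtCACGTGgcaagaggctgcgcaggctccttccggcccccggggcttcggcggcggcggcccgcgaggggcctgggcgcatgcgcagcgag
Their differences were -1.56 and -1.42. A match is a description of the letters and shows no binding.

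The TCF/LEF letters CTTTGAT, searched on both strands, were found in 206 of all promoters (1.92%), in 7 of the lower genes (1.36%) and in 3 of the higher genes (0.932%). AP-1 letters TGANTCA, the element of FOS and JUN proteins, were found in 631 promoters (5.88%), in 27 of the higher genes (8.39%) and in 15 of the lower genes (2.91%). Regions beyond these 300 bases were not analysed here.

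**Figure D2:**
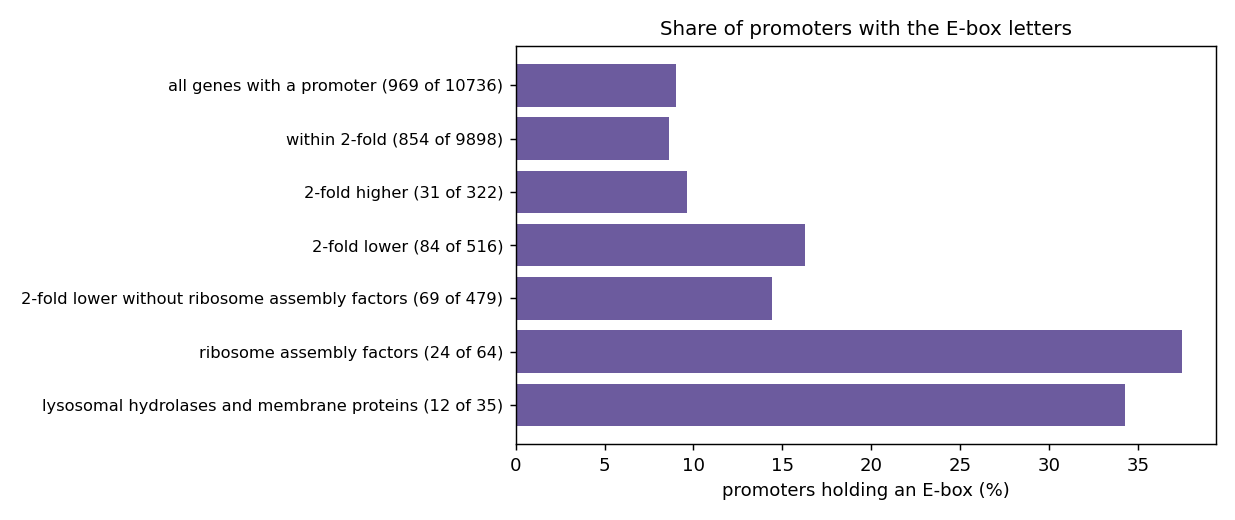
Share of promoters (%, horizontal axis, from 0) that hold the E-box letters in each gene set, with the number holding it and the number searched in the label. Ribosome assembly factors (37.5%) and lysosomal genes (34.3%) stand above the 9.03% of all promoters, although the first family lay below 0 and the second above it.

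RNA exosome and RNA polymerase III genes also lay mostly below 0, while Mediator genes lay near it. Of 14 genes of the RNA exosome, which trims and degrades RNA from its 3′ end, 7 were 2-fold lower and 13 were below 0, with a median of -0.99. The ring and cap subunits EXOSC2 (-2.34, or 5.06-fold) and EXOSC5 (-1.91) had the largest differences, followed by the helicase MTREX (-1.34) and the nuclease DIS3L (-1.31). EXOSC8 (-1.18), EXOSC9 (-1.12) and EXOSC7 (-1.03) were also past 2-fold, and EXOSC10, the nuclear nuclease, was at -0.16. Among 8 genes of RNA polymerase III, which transcribes transfer RNAs and the smallest ribosomal RNA, POLR3G was at -2.59 while its paralogue POLR3GL, which replaces it in differentiated cells, was at 0.36. The difference between these 2 alternative subunits was the widest in that family. GTF3A, its factor for ribosomal RNA genes, was at -1.23, and MAF1, its repressor, at -0.12. Of 31 subunits of Mediator, which joins transcription factors to RNA polymerase II, 1 was past 2-fold (MED1, at -1.33), 13 were above 0 and the median was -0.08.

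Host genes of small nucleolar RNAs, whose introns carry the guides for ribosomal RNA modification, had the lowest median of all families, at -1.26 over 12 genes. GAS5 (-1.68), SNHG16 (-1.59), SNHG8 (-1.45), EPB41L4A-AS1 (-1.42), SNHG5 (-1.39), SNHG17 (-1.28) and ZFAS1 (-1.25) were 2-fold lower. SNHG20 (0.00), SNHG18 (-0.10) and SNHG33 (0.19) were not apart. In the MYC pair this family had a median of -0.17, and in the MYU pair 0.28, where SNHG16 was at 0.95. Small nucleolar and Cajal body RNAs, which guide modification of ribosomal and spliceosomal RNAs, had a median of -0.01 over 21 genes. SCARNA3 (-1.84) and SCARNA9L (-1.33) were lower and SCARNA4 (1.22) and SCARNA8 (1.19) higher.

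Splicing factors were lower by smaller amounts. Of 28 genes of the SMN complex, which assembles small nuclear ribonucleoproteins, and of those particles themselves, 8 were 2-fold lower with a median of -0.68. GEMIN5, the RNA-recognising subunit of the complex, differed by -2.37, and the core protein SNRPD1 by -1.88. Of 33 SR proteins and hnRNPs, which select exons, 10 were 2-fold lower, with a median of -0.56. They were led by SRSF7 (-1.54), SRSF1 (-1.38), HNRNPR (-1.32), HNRNPDL (-1.19), HNRNPA1 (-1.14) and SRSF2 (-1.11). Translation genes stood closer to 0. Only EIF4A3, a helicase of the exon junction complex, passed 2-fold (-1.21) among 24 initiation factor genes, whose median was -0.27. Of 18 cytosolic aminoacyl-tRNA synthetases, LARS1 (-1.48) and IARS1 (-1.13), which charge tRNAs with leucine and isoleucine, were 2-fold lower, with a median of -0.36. Of 46 tRNA modification enzymes 4 were 2-fold lower: TRMT6 (-1.30), PUS7 (-1.27), PUS7L (-1.23) and ELP2 (-1.22). The 2 probe sets of PUS7 disagreed, at -2.11 and -0.43.

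Nuclear pore and transport genes lay mostly below 0. Of 28 nucleoporins 14 were 2-fold lower, 14 were within 2-fold and 27 were below 0, with a median of -0.99. NDC1, which anchors the pore in the membrane, had a value of -1.08 on the knockdown array and 1.08 on the control array, a difference of -2.15 or 4.45-fold. The scaffold subunits SEH1L (-1.79), NUP107 (-1.71), NUP93 (-1.65), NUP155 (-1.60) and NUP160 (-1.54) followed. Of 22 importins and exportins, the carriers that pass through the pore, 7 were 2-fold lower, 19 were below 0 and 3 above it, with a median of -0.76. CSE1L, which returns importin alpha to the cytoplasm, was at -2.05, IPO11 at -1.53, XPO5, the exporter of microRNA precursors, at -1.41, and XPO4 at -1.40. The 2 families had medians of -0.48 and -0.33 with MYC siRNA and of -0.08 and -0.17 with MYU siRNA.

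Mitochondrial families differed in their medians. The 28 genes that maintain and express mitochondrial RNA and DNA had a median of -0.83, 10 were 2-fold lower and none was above 0. PNPT1 (-1.78), an RNA-degrading enzyme, MTERF3 (-1.77), a regulator of mitochondrial transcription, LRPPRC (-1.65), which stabilises mitochondrial messenger RNAs, the ribosomal RNA methyltransferase MRM3 (-1.61), the poly(A) polymerase MTPAP (-1.41) and the DNA helicase TWNK (-1.25) led them. Protein import into mitochondria had a median of -0.81, with 8 of 29 genes 2-fold lower. TIMM21 was at -1.64, TOMM40, the channel of the outer membrane, at -1.38, and TOMM34 at -1.29. Mitochondrial ribosomal proteins had a median of -0.56 over 73 genes, and 14 were 2-fold lower, with MRPL50 (-1.54), MRPL42 (-1.46) and MRPS17 (-1.41) lowest. The nuclear-encoded subunits and factors of respiratory complexes II to IV lay near 0. None of 23 passed 2-fold, their median was 0.03, and the range ran from -0.52 (UQCRHL) to 0.24 (COX7A2). In the citric acid cycle group OGDH, a subunit of the oxoglutarate dehydrogenase, was higher at 1.39, and the other 10 genes lay between -0.55 (IDH3B) and 0.67 (PC).

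Nucleotide and one-carbon enzymes, taken as a pathway, were 2-fold lower in 18 of 35 cases with a median of -1.09. Lower genes lay at the entry of the purine route and along it, with PPAT, the committed step, at -2.17, PFAS at -1.86 and IMPDH2, which leads to guanine nucleotides, at -1.64. TYMS (-2.29) and the ribonucleotide reductase subunit RRM2 (-1.88) make DNA precursors, and MTHFD1L (-1.78) supplies mitochondrial formate. UPP1, which breaks uridine down, stood apart at 0.74, and was named after its value was seen. Polyamine synthesis was lower at its committed and later steps, with ODC1 at -1.39, AMD1 at -1.06 and spermidine synthase SRM at -1.86, while ATP13A2, a lysosomal polyamine exporter, was higher at 1.25. The median of the 19 polyamine genes was -0.09.

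Metallothioneins, small cysteine-rich proteins that bind zinc and copper, had 3 of 10 genes 2-fold lower. MT1X was at -0.96 on the knockdown array and 0.96 on the control array, a difference of -1.92. MT1G differed by -1.70 and MT2A by -1.32, whereas MT1E (-0.57), MT3 (-0.43), MT1F (-0.19), MT4 (-0.14), MT1B (-0.03), MT1H (0.04) and MT1M (0.09) were within 2-fold. In the MYU pair MT1X was at 0.52, MT1G at 1.03 and MT2A at 0.56. These genes are close copies, so probe sets may share signal.

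Regulators of chromatin were mostly near 0, with single enzymes lower. Of 71 histone and DNA methyl-modifying genes 5 (7.04%, against 4.94% of protein-coding genes) were 2-fold lower and none higher. They were EZH2 (-1.94), the methyltransferase of Polycomb, DNMT1 (-1.81), which copies DNA methylation after replication, SUV39H2 (-1.27), PRMT3 (-1.13) and the demethylase KDM1A (-1.12). Among 67 remodelling and Polycomb genes KAT2A (-1.49), ARID5B (-1.25) and SUZ12 (-1.17), the partner of EZH2, were lower, and the sirtuins SIRT6 (1.69) and SIRT7 (1.38) were higher. The median over all 67 was -0.12. Ubiquitin families held a few outlying members against medians near 0. USP1 (-1.89), USP28 (-1.48) and USP13 (-1.34), which remove ubiquitin, and the conjugating enzyme UBE2T (-1.57) were lower. RNF43, a ubiquitin ligase that removes Wnt receptors from the surface and is itself a Wnt target, was the only 1 of 67 RNF genes past 2-fold, at -1.48. Of 60 TRIM ligases TRIM28 (-1.47) and TRIM37 (-1.03) were lower and TRIM31 (1.14), TRIM15 (1.11) and TRIM25 (1.04) were higher. Those shares, 3.33% lower and 5.0% higher, were near the 4.94% and 3.37% of protein-coding genes. Of 467 ZNF genes 10 were 2-fold lower (ZNF280C lowest at -1.58) and 1 higher (ZNF185, 1.27), below the protein-coding background in both directions. Their median was -0.06 and 294 of them were below 0.

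Centrosome and cilium genes, which also serve division, had 10 of 69 members 2-fold lower and a median of -0.38. The lowest were the factors of centriole duplication, SASS6 (-2.19), which forms the centriole cartwheel, the kinase PLK4 (-2.07) and STIL (-1.99), followed by CEP78 (-1.85).

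Some families of the cell surface and its skeleton held many higher genes. Plakins, AHNAK proteins and ferlins, very large proteins that tie membranes to filaments or fuse vesicles, were all above 0, 7 of 12 were 2-fold higher, and the median was 1.53. FER1L6, a ferlin, was at 2.24 on the knockdown array and -2.24 on the control array, a difference of 4.48 or 22.3-fold. AHNAK2 (1.96), the linkers DST (1.85) and PLEC (1.61), AHNAK (1.57), MYOF (1.56) and PPL (1.49) followed, while MACF1 (0.46), DSP (0.37), EPPK1 (0.29), OTOF (0.13) and EVPL (0.04) were within 2-fold. Of 6 chloride intracellular channel genes, whose products exist in soluble and membrane forms, 4 were 2-fold higher, with a median of 1.25. CLIC5, a linker in microvilli and stereocilia, was at 2.52 (5.74-fold), CLIC4 at 1.34, CLIC3 at 1.33 and CLIC1 at 1.17, while CLIC2 (0.01) and CLIC6 (-0.12) were not apart. Of 21 actin bundlers and membrane linkers 11 were 2-fold higher, with a median of 1.02. VILL, a relative of villin, was at 2.27, EPS8L1 at 2.07, the capping protein EPS8 at 1.32, BAIAP2L1 at 1.24, SCIN at 1.19 and the bundler PLS1 at 1.19. These 3 families were collected after the values were seen, as were the myosins, the ESCRT genes, the CEACAM and TMC groups, the mitochondrial RNA group and the sterol and sphingolipid group, so their counts are a description only.

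**Figure D3:**
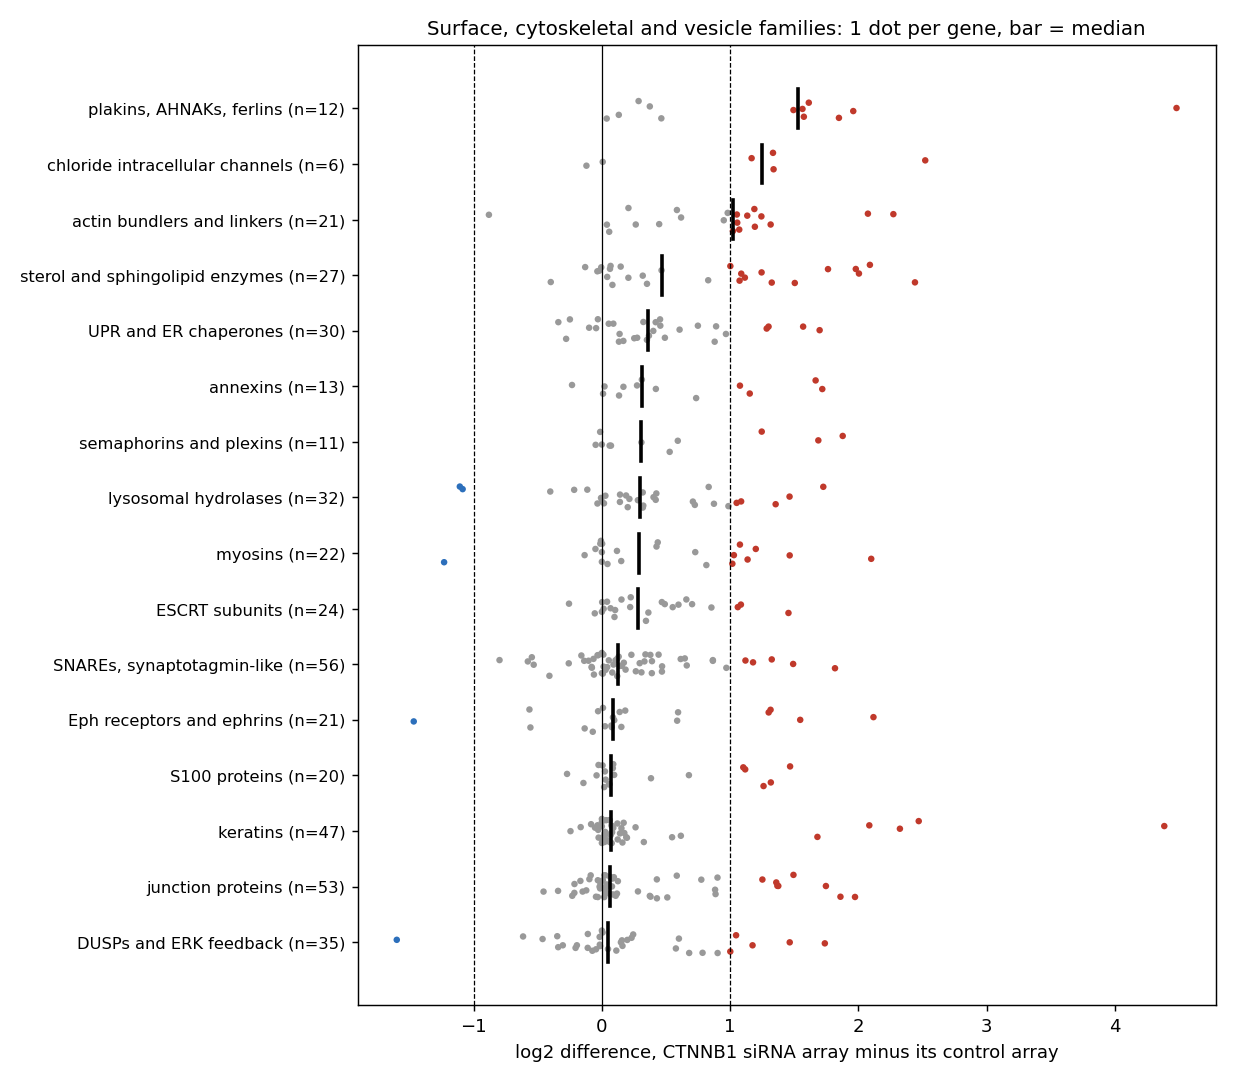
Log2 difference (CTNNB1 siRNA array minus its control array, horizontal axis) of every measured gene in 16 families, 1 dot per gene, with the median as a black bar, dashed lines at 2-fold, red for genes at least 2-fold higher and blue for lower. Only the upper families have medians past 1 (plakins, AHNAKs and ferlins at 1.53), and these were collected after the values were seen, so their medians are a description only. Keratins and junction proteins hold a few high members over a median near 0.

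Motors, junctions and filaments showed the same pattern of a few high members. Of 22 myosins 7 were higher, led by MYO7B (2.10), the motor at microvillus tips, and MYO1E (1.46), and the mitochondrial motor MYO19 was lower (-1.23). Of 53 junction genes 8 were 2-fold higher and none lower, with a median of 0.06. The tight junction scaffold TJP3 (1.97), the claudins CLDN23 (1.86) and CLDN1 (1.75), plakoglobin JUP (1.38), which shares partners with beta-catenin, and cingulin CGN (1.37) were among them. Cadherins at 2-fold were CDHR5 (2.46) and CDHR2 (1.57), which link microvilli to each other, and PCDH1 (1.43). The other 38 of 41 cadherins and protocadherins lay between -0.27 and 0.34 (PCDHB13). Of 47 keratins 5 were higher: KRT20 (4.39), a marker of mature colonocytes, KRT80 (2.47), KRT4 (2.32), KRT19 (2.09) and KRT13 (1.68). KRT4 and KRT13 are the filament pair of stratified mucosa. With MYC siRNA KRT80 was at 1.34, KRT4 at 0.18 and KRT13 at 0.07.

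Eph, plexin, tetraspanin and CEACAM genes were next among the surface molecules. Among 21 Eph receptors and ephrins, with a median of 0.09, the ligands EFNB2 (2.12), EFNB1 (1.55) and EFNA2 (1.32) and the receptor EPHA2 (1.30) were higher, and the receptor EPHB3, a known beta-catenin target that positions cells in the crypt, was lower at -1.47. With MYC siRNA EFNB2 was at -0.11, EFNB1 at -0.02 and EPHB3 at -0.58. Plexins, the receptors of semaphorins, had 3 of 11 family genes higher: PLXNA2 (1.88), PLXNB2 (1.69) and PLXNA3 (1.25). PLXNB1 (0.53), NRP1 (0.59) and PLXNA1 (0.31) were within 2-fold, and NRP2, PLXNA4, PLXNB3, PLXNC1 and PLXND1 lay between -0.05 and 0.07. TSPAN1 (3.03, or 8.15-fold) and TSPAN8 (1.17) were the higher tetraspanins of 31, organisers of membrane domains. In the CEACAM and butyrophilin-like group CEACAM1, an adhesion molecule of the apical membrane, was at 3.40, BTNL3, which engages intestinal gamma-delta T cells, at 2.42, CEACAM6 at 2.01, HHLA2 at 1.85 and CEACAM5 at 1.11. CEACAM1 and BTNL3 were at 0.10 and 0.09 in the MYC pair, in which CEACAM7 was at 2.995 (5.90 with CTNNB1 siRNA). TM4SF4 (2.36), TM4SF1 (1.98), TMC7 (1.67), TMC4 (1.20) and TMC6 (1.10) were higher in a group of 14 with a median of 0.42.

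Secreted and membrane proteases were higher in 8 of 68 cases and lower in none, with a median of 0.06. The calpains of the gut lining CAPN8 (2.08) and CAPN9 (1.96), the metalloprotease MMP28 (1.77), the dipeptidase DPP4 (1.45) and the kallikreins KLK10 (1.78) and KLK11 (1.53) were the highest. Their inhibitors included SLPI (3.49), TIMP2 (3.14, or 8.83-fold) and TIMP1 (1.001). Kallikreins are encoded side by side, and the sign of the difference varied along the row. KLK6 (-0.81), KLK7 (-0.90) and KLK8 (-0.32) lay below 0, KLK9 (0.15) near it, KLK10 and KLK11 above the 2-fold line and KLK12 (-0.33) below 0 again. S100 genes, which encode small calcium-binding proteins and lie mostly in 1 cluster, had 5 of 20 members higher, with S100A16 (1.47), S100A10 (1.32), S100A6 (1.26), S100P (1.12) and S100A14 (1.10). S100A16 and S100A14 are neighbours, while S100A6 stood alone between S100A7 (-0.03) and S100A5 (0.02). S100A10 binds ANXA2 (0.74), an annexin. Of 13 annexins, which bind membranes in response to calcium, 12 were above 0 and ANXA11 (1.72), ANXA3 (1.67), ANXA1 (1.15) and ANXA4 (1.08) were 2-fold higher.

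**Figure D4:**
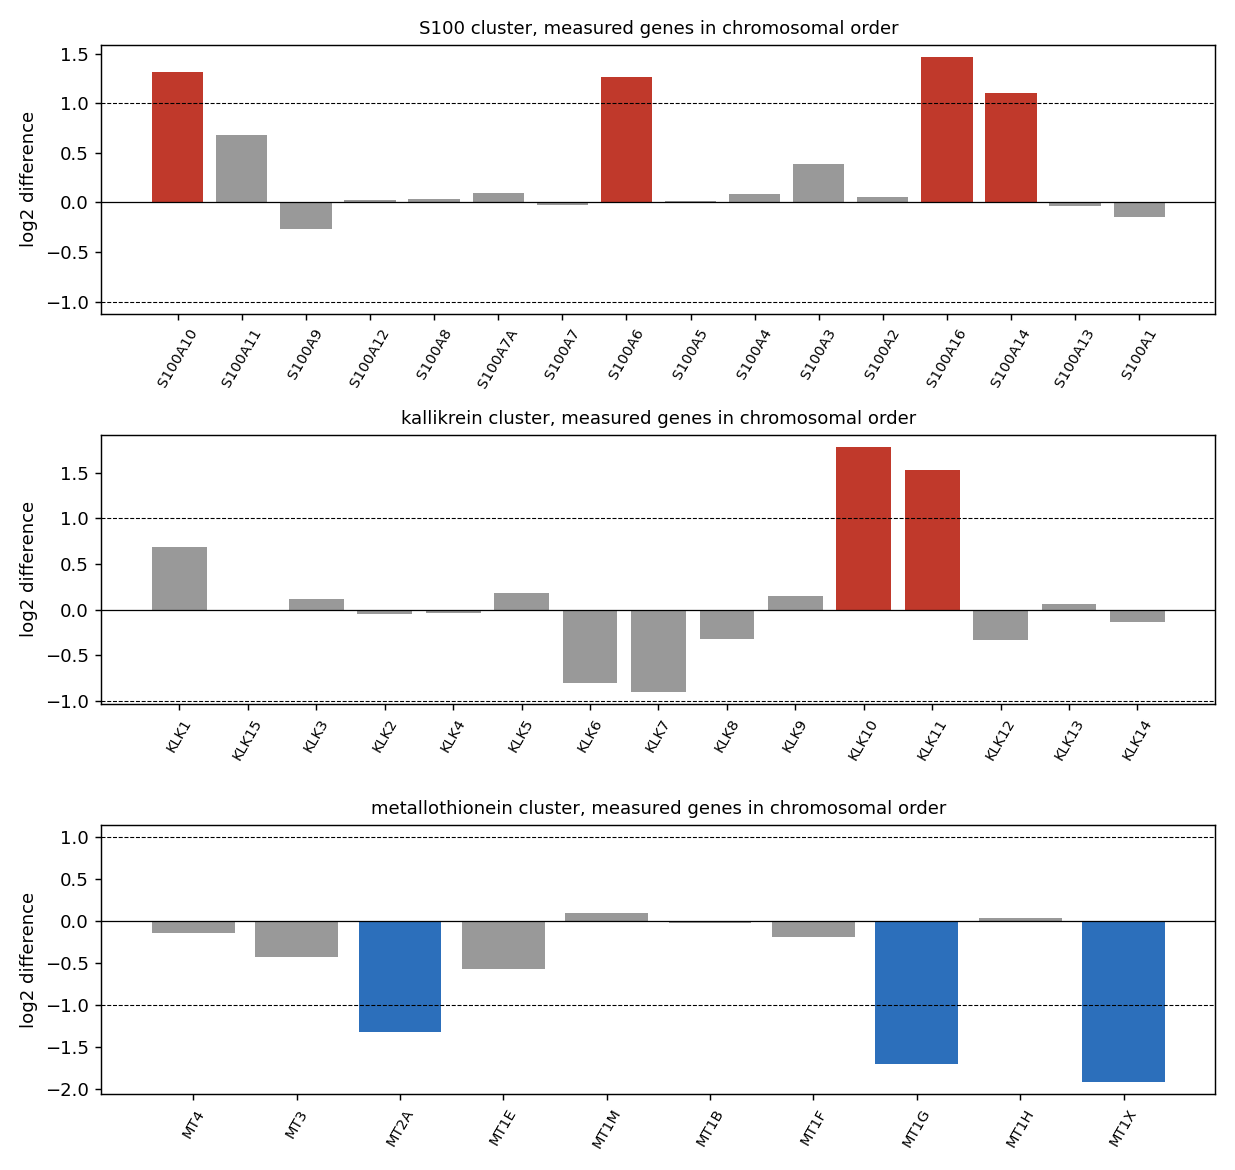
Log2 difference (CTNNB1 siRNA array minus its control array, vertical axis) of the measured genes of 3 clusters, as bars from 0 in chromosomal order (gene order of GRCh38.p14), with dashed lines at 2-fold, red for at least 2-fold higher and blue for lower. High members sit beside members near 0, as with S100A6, and KLK10 and KLK11 stand next to each other between KLK9 (0.15) and KLK12 (-0.33), both within 2-fold.

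In the vesicle and endoplasmic reticulum families given here most genes past 2-fold were higher. Of 30 genes of the unfolded protein response and endoplasmic reticulum folding 4 were 2-fold higher and none lower, with a median of 0.36 and 24 above 0. The higher members were the transcription factor CREB3L1 (1.70), ERN2 (1.57), the stress sensor of mucus-making epithelium, and the disulfide isomerase family members ERP27 (1.30) and AGR2 (1.29), the latter needed for mucin folding. SNAREs and synaptotagmin-like proteins, which dock and fuse vesicles, had 5 of 56 members higher: STX19 (1.82), VAMP8 (1.49), SYTL2 (1.32), SYTL5 (1.18) and STX12 (1.12). Of 24 ESCRT genes, which bud membranes away from the cytosol, CHMP5 (1.45), STAM2 (1.08) and CHMP2B (1.06) were higher, 21 were above 0 and the median was 0.28. KDELR3 (1.47), a retrieval receptor of the Golgi, the autophagy receptor OPTN (2.04) and SNX9 (1.42) were higher as well, and SNX5 (-1.29), a retromer partner, was lower. Golgi enzymes that start mucin-type glycans included GALNT5 (2.24), GALNT12 (1.28) and GALNT3 (1.23), against a median of 0.08 for their 18 genes.

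Lysosomal hydrolases had a median of 0.30 over 32 genes, with 5 at least 2-fold higher and 2 lower. Cathepsin D, CTSD, was at 0.86 on the knockdown array and -0.86 on the control array, a difference of 1.73 or 3.31-fold. HGSNAT (1.46), the sialidase NEU1 (1.35), GALC (1.09) and CTSZ (1.05) were higher, and PPT1 (-1.11) and CTSC (-1.09) lower. HGSNAT is an acetyltransferase that was listed and counted with the hydrolases. CTSZ falls outside the naming rule and is given to complete the count. In the MYC pair the median of this family was 0.38, with NEU1 at 1.53, HGSNAT at 1.06 and CTSD at 0.73, and in the MYU pair it was 0.13. CD68, a membrane glycoprotein of lysosomes, was at 2.65, and IGF2R, which carries hydrolases to them, at 1.05, while TFEB, a transcription factor of lysosomal genes, was at 0.06. E-boxes were present in 12 of 35 promoters (34.3%) of lysosomal hydrolases and membrane proteins, against 9.03% of all promoters. The 35 include the transcription factors MITF, TFE3 and TFEB, which are not hydrolases or membrane proteins and whose promoters lack the letters. The mean GC content of the lysosomal set was 67.28%, above that of the other sets given, and its part in this share was not tested. The letters are also the core of the element bound by TFEB and its relatives. Members with them had a median of 0.43 and those without 0.14, and 3 of each were 2-fold higher. HOX genes held the letters in 5 of 11 promoters (45.5%) and none of the family passed 2-fold. Without levels it cannot be told whether HOX genes were expressed, so nothing about the letters can be read from them.

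The upstream sequence of the 2 lysosomal members with the largest difference and an E-box before the start site is shown for comparison with the ribosome assembly genes above. Both are on the minus strand and are written 5′ to 3′ in the direction of the gene, with the E-box in capitals. CTSD lies at chr11:1763928-1764177 (GRCh38.p14), with the E-box starting at -47 from the start site. NEU1 lies at chr6:31862822-31863071, with the E-box starting at -126.
CTSD: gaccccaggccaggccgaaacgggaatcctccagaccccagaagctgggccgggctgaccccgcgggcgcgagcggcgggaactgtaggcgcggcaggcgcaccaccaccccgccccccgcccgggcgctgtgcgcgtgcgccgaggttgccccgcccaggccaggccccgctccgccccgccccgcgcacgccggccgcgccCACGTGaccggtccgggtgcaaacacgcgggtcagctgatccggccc
NEU1: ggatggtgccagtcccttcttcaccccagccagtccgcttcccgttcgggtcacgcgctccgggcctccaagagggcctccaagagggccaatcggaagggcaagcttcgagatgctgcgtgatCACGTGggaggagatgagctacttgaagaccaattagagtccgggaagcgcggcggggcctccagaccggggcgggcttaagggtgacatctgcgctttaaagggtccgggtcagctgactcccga
CTSD and NEU1 had differences of 1.73 and 1.35, against -1.56 and -1.42 for NAT10 and UTP18. All were picked for holding the letters and for a large difference in the direction of their family. Their opposite signs were thus set by the choice and are no result about the letters.

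Lipid enzymes were higher in selected branches. Of 27 sterol and sphingolipid genes, 12 were 2-fold higher and none lower, with a median of 0.47. The sphingolipid side comprised FA2H (2.44, or 5.43-fold), which makes hydroxylated ceramides, the ceramidase ACER2 (2.09), the exporter of sphingosine phosphate SPNS2 (1.98) and UGCG (1.76), which makes glucosylceramide. On the sterol side MVD was at 2.004 and HMGCS1 at 1.504. In the MYC pair MVD was at -0.19, HMGCS1 at -0.70 and FA2H at 0.15. Of 72 genes of fatty acid activation, lipid droplets and phospholipid remodelling 7 were higher and 2 lower. ACSS2 (2.09), which makes acetyl-CoA from acetate, DGAT1 (1.84), which completes triglycerides, the droplet coat PLIN3 (1.42) and the lipases PNPLA2 (1.32) and MGLL (1.19) led them. The probe sets of PNPLA2 were at 0.75 and 1.89. Synthesis and breakdown of triglyceride thus had members on the same side.

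**Figure D5:**
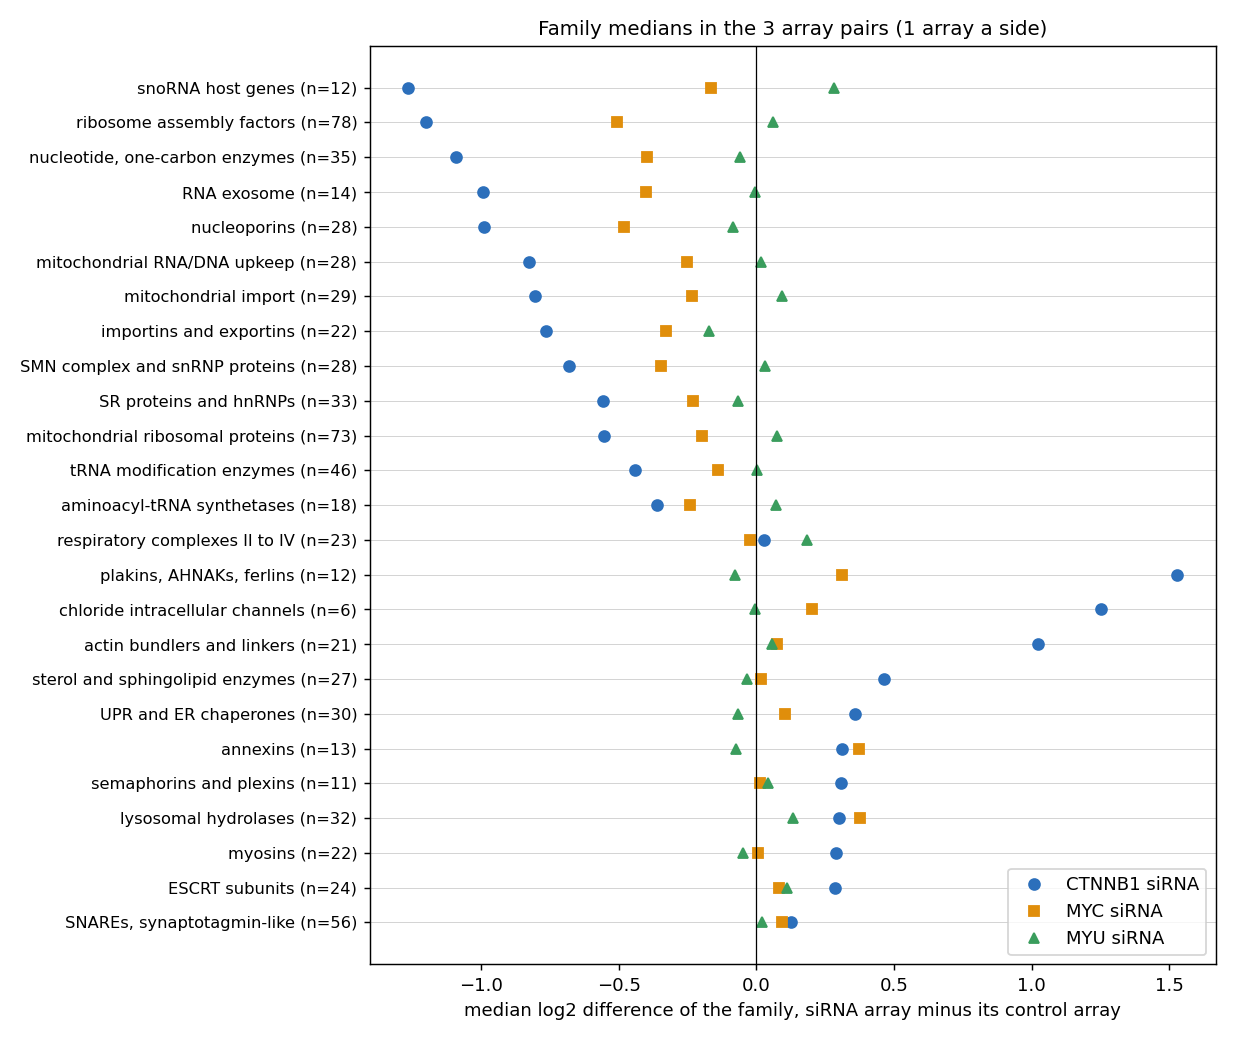
Median log2 difference of each family (siRNA array minus its own control array, horizontal axis) in the CTNNB1 (circles), MYC (squares) and MYU (triangles) pairs, with the number of genes in the label and 1 array a side. Ribosome assembly factors stand at -1.20, -0.51 and 0.06 in these pairs, actin bundlers and linkers at 1.02, 0.08 and 0.06, and lysosomal hydrolases at 0.30, 0.38 and 0.13.

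Signalling families had medians near 0 with a few genes past 2-fold. Of 35 MAP kinase phosphatases and ERK feedback genes 5 were 2-fold higher and 1 lower, 15 were below 0, and the median was 0.05. The higher phosphatases, which switch off MAP kinases, included DUSP1 at 1.74, DUSP5 at 1.46, DUSP4 at 1.17 and DUSP8 at 1.05, while ETV4, a transcription factor downstream of ERK, was lower at -1.60. The probe sets of DUSP5 disagreed, at 0.16 and 2.77. In the BMP pathway the ligand BMP2 (1.73) and the activin inhibitor FSTL3 (1.35) were higher and the ligand BMP4 (-1.13) lower, so 2 closely related ligands stood on opposite sides. NRARP (-1.46), a feedback inhibitor of Notch, PTCH1 (-1.03), the Hedgehog receptor, and TEAD4 (-1.12), the partner of YAP, were the only members of their pathways past 2-fold. The receptor kinase MET (1.26) and IGFBP3 (1.25) were higher among 71 growth factor and receptor kinase genes. Small GTPases RHOF (2.11), which forms filopodia, and RHOB (1.78) were higher, with the activating protein ARHGAP42 (1.35). Of 100 orphan and adhesion G protein-coupled receptors ADGRF1 (2.51) was highest and GPR63 (-1.64) lowest.

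Transcription factor families had the same form. KLF6 (2.23) and KLF2 (1.73) were the members past 2-fold among 17 Kruppel-like factors. Forkhead factors held FOXO1 (1.37), which restrains growth, and FOXM1 (-1.56), which drives mitosis, and the other 41 lay between -0.46 (FOXP3) and 0.56 (FOXO3). SPDEF (2.24) and ELF4 (1.45) were higher among 21 ETS factors. The fatty acid receptors PPARD (1.32) and PPARG (1.15) were higher among 11 nuclear receptors, with PPARA at 0.61, ESRRG at 0.11, RORA at 0.11, ESRRA at 0.06 and the remaining 5 between -0.09 (ESR2) and 0.01 (ESRRB). FOSL2 (1.33) was the 1 of 25 AP-1, ATF and CREB factors past 2-fold.

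No gene passed 2-fold in 10 families. They included 27 HOX genes (-0.25 to 0.26), 19 SOX factors (SOX4 lowest at -0.88), 58 chemokines and receptors (CXCL8 at -0.92 and CCL28 at 0.92), 21 conjugating enzymes of the UGT, SULT and GST kinds, 36 glycan sulfotransferases, 15 antigen presentation genes and 26 regulators of apoptosis (BIRC5 at -0.82 and APAF1 at 0.91). Markers of other intestinal lineages were counted as well. Measured were 21 of 30 listed enteroendocrine markers, 7 of 14 Paneth cell markers and 13 of 18 tuft cell markers. None of the enteroendocrine or Paneth cell markers passed 2-fold. With 8.3% of protein-coding genes past 2-fold, counts of 0 in sets this small show nothing about these lineages. The tuft cell markers IL17RB (-2.43) and ALOX5 (1.98) passed 2-fold in opposite directions, a higher share than 8.3% but from 2 genes only. Antiviral and inflammatory sensors had 3 of 49 past 2-fold: the kinase RIPK3 (1.32), which triggers necroptosis, the adaptor MAVS (1.14) and TRAF5 (-1.24). Those shares were 4.08% higher and 2.04% lower, against 3.37% and 4.94% of protein-coding genes, and rest on 3 genes only. Without levels it cannot be told whether a family near 0 was expressed.

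Non-coding genes were seldom apart. Of 457 LINC genes 3 were higher, LINC01133 (2.22), LINC00520 (1.39) and LINC00707 (1.02), and none was lower. Of 479 antisense RNAs EPB41L4A-AS1, counted above as a host gene, and PRRT3-AS1 (-1.37) were lower. MIR22HG (1.25) and MIR4453HG (-1.02) were past 2-fold among 20 microRNA host genes.

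MicroRNA genes numbered 1022, of which 952 matched the RefSeq table of GRCh38.p14, and 3 were 2-fold higher and 7 lower. Such probe sets read the precursor or its host RNA, not the mature microRNA. Mature sequences are shown for some of the genes past 2-fold and for others picked by name that were within 2-fold. They are written 5′ to 3′, with the seed, bases 2 to 8, in capitals. Of the 7 lower genes 6 were MIR3689E (-1.96), MIR3689D2 (-1.83), MIR3689A (-1.72), MIR3689F (-1.71), MIR3689B (-1.56) and MIR3689D1 (-1.33), and they lie together on chromosome 9 within the RNA gene LOC101448202. They are near copies and may share probe signal, so they are not independent values. In the MYC pair they lay between -0.49 and -0.17 and in the MYU pair between -0.13 and 0.18. The 5p products of MIR3689A, MIR3689B, MIR3689E and MIR3689F share the seed GUGAUAU.
hsa-miR-3689a-5p: uGUGAUAUcaugguuccuggga
hsa-miR-3689f: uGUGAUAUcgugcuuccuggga
hsa-miR-3689d: gGGAGGUGugaucucacacucg
The seventh lower gene was MIR3143 (-1.69).

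Higher microRNA genes were MIR622 (1.04), MIR328 (1.02) and MIR194-1 (1.01). The last belongs to a set known for the intestine and liver, of which MIR192 was at 0.81 and MIR215 at 0.30. MIR192 and MIR215 share the seed UGACCUA. MIR21 (0.92), abundant in colorectal tumours, lies inside VMP1, which was at 0.09. MIR221 (0.72) and MIR222 (0.75) are transcribed together and share the seed GCUACAU.
hsa-miR-194-5p: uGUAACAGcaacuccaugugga
hsa-miR-192-5p: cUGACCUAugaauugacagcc
hsa-miR-215-5p: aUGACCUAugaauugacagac
hsa-miR-21-5p: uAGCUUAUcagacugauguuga
hsa-miR-221-3p: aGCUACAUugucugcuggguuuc
hsa-miR-222-3p: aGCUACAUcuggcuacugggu
MicroRNA genes inside genes past 2-fold were counted against the share of all microRNA genes, 0.685% lower and 0.294% higher. Of 13 microRNA genes inside a gene that was 2-fold lower, 0 were themselves 2-fold lower, and of 9 inside a 2-fold higher gene 0 were higher, so at these shares and numbers nothing can be read from the counts. MIR25, MIR93 and MIR106B lie in MCM7 (-1.85) and were at -0.80, -0.06 and -0.20.

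The labelled cell type was checked against markers. Of 6 markers of colon epithelium 5 were measured, with differences from -0.42 (CDX2) to 1.06 (VIL1) and KRT8 at 0.08. Of 7 fibroblast markers 3 were measured, and LUM was at 2.78 while DCN (0.01) and THY1 (-0.04) were near 0. Of 6 leukocyte markers 2 were measured, with CD68 at 2.65 and CD14 at -0.03, and of 4 endothelial markers VWF (0.02) and KDR (0.04) were measured. Since the table holds no levels, defining markers cannot be called absent or present, and the part of other cells in these results was not tested.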

How the data were processed

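Total RNA of LS180 cells was prepared with TRIsure and hybridised, as biotin-labelled target, to Affymetrix arrays, per the labels. The deposited table holds log2 values with each pair of arrays centred on its mean by the authors. This is inferred from the numbers, since both arrays of a pair add up to 0 to within 1e-06 for every probe set. A log base of 2 was assumed. Background correction, normalization and summarisation: not given in the sources used here. Because of the centring, levels, filters on low signal and the spread between control arrays could not be had, and no test was run.

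Of 44629 probe sets, 15835 are listed with 1 gene symbol and 28794 are not listed and stay unnamed. Probe sets of a gene were averaged (651 genes had several, with a median SD between them of 0.10). A gene was called apart at 2-fold. Families came from symbol patterns and lists of protein-coding genes or, for non-coding families, of RNA genes. Symbols that the annotation does not list were not analysed here, which leaves out whole families. In each family the text names up to 6 members with the largest difference, every member of families of up to 15 where that helps, the genes nearest the threshold and those with printed sequence, and other names were chosen after their values were seen. The members, lists and the comparison were chosen with earlier results of these data known. Calculations were tested on simulated data. Python 3.11.15, numpy 2.4.6, pandas 2.3.3 and matplotlib 3.10.9 were used. The number of arrays limits the precision.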

Additional observations from a re-analysis of the deposited data

Results flagged for a closer look

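Among genes at least 2-fold apart in the CTNNB1 pair, 3 were at least 2-fold apart in the opposite direction in another pair, and the difference between pairs was not tested. CTSE, an aspartic protease of the gastric and intestinal lining, was at 2.49 with CTNNB1 siRNA and at -1.08 with MYU siRNA. GPR15LG, a secreted peptide of the colon that binds GPR15, was at 2.34 and -1.65. The metallothionein gene MT1G was at -1.70 and 1.03.

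Probe sets with no listed gene, which enter no comparison above, also carried differences. Of 28794 such probe sets 677 (2.35%) were at least 2-fold apart in the CTNNB1 pair, 315 higher and 362 lower, with values from -2.95 to 4.94. With MYC siRNA the number was 131 and with MYU siRNA 21.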

How the results depend on the processing

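At 1.5-fold 2406 genes were apart, 954 higher and 1452 lower, and counted over the whole table of probe sets the numbers were 1756, 759 and 997. Both differ from the 1028, 415 and 613 genes at 2-fold by more than 1.5 times, since they use a looser threshold and a larger table. Setting the array medians equal gave 1032, 407 and 625, the probe set nearest to 0 gave 1022, 413 and 609, and protein-coding genes alone gave 989, 401 and 588. The medians of the 93 families moved by at most 0.054 under equal array medians and the probe set nearest to 0. Of these, 4 medians within 0.011 of 0 changed sign. Peroxins, LINC genes and microRNA genes went to -0.00042, -0.00097 and -0.00044 with array medians equal, and the YAP and TEAD family went to -0.02 with the probe set nearest to 0. Of 308 genes named by the rule and past 2-fold, 301 rest on 1 probe set. Of the other 7, taking the probe set nearest to 0 left DUSP5 at 0.16, PNPLA2 at 0.75 and PUS7 at -0.43, within 2-fold. No paired analysis was possible because each group has 1 array and the control carries no spread of its own. Leaving out a replicate, a filter on low values and another normalization could not be had, and log values need no pseudocount. Precision is limited by the number of arrays, and signal over background is not in the table.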
